A study of Homo sapiens with 44 samples.

Results

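Cells obtain cholesterol by building it from acetyl-CoA and by taking up lipoproteins. This report describes 8 genes of that system in human neuroblastoma cells whose m6A methyltransferase METTL3 was inhibited with STM2457. The genes were taken as the rows of the count files that carry their symbols, and all 8 were found among the 19923 genes of the table. They are 6 enzymes of the synthesis pathway, HMGCS1, IDI1, FDFT1, SQLE, LSS and DHCR7, and the regulators INSIG1 and SREBF2. None of the 8 codes for an uptake receptor, so the receptor genes are given separately as other genes of the pathway.

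The study measured poly(A) RNA (input libraries) and the same kind of RNA after pulldown with an antibody against N6-methyladenosine (RIP libraries, from meRIP-Seq) in 44 libraries. Kelly and NGP are MYCN-amplified human neuroblastoma cell lines, labelled as wild type. Kelly cells were grown with 8 µM STM2457 or its solvent DMSO for 1 day or for 6 days, and NGP cells with the same agents for 6 days, in 3 replicates of each group. Subcutaneous Kelly tumours in male and female nude mice, which lack most T cells, came from animals injected into the peritoneum with 50 mg/kg STM2457 or vehicle once a day for 14 days, in 2 replicates of each group. The vehicle tumours are labelled DMSO. The labels do not say whether replicates were separate cultures or passages, so p-values measure the spread between these libraries, which may be technical. The ages of the mice and the removal of reads from mouse RNA are not given in the sources used here.

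In the mevalonate pathway, acetyl-CoA units are joined to HMG-CoA, reduced to mevalonate and converted to isoprenoid units, which are condensed to squalene, closed to lanosterol and trimmed to cholesterol. The pathway is governed by SREBP-2, the product of SREBF2, a transcription factor held in the endoplasmic reticulum by SCAP and INSIG proteins while sterols are plentiful. When sterols run low, the complex moves to the Golgi, SREBP-2 is cut free and enters the nucleus, and genes for sterol synthesis and uptake are transcribed. STM2457 blocks the catalytic site of METTL3, the enzyme that writes most m6A on mRNA. Its target is an enzyme activity, so the level of a transcript gives no check of its action.

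Total counts ran from 2144870 to 36497858 per library, and the lowest total was that of a tumour input, a kind that reached at most 7271929. Replicate 3 of the STM2457 inputs in Kelly cells at 6 days held 5765458 counts, with 1.79% of them from mitochondrial mRNA, the lowest values among the 6 inputs of that experiment. All 10 markers of noradrenergic neuroblastoma cells were detected in every experiment, and their summed level ran from 11700 to 44100 CPM (counts in each 1e6 of the library). Markers of fibroblasts summed to at most 104 CPM and those of endothelium, blood cells, liver and fat to at most 19.8 CPM in any input. In the tumours COL1A1 made up nearly all of the fibroblast signal, while DCN, LUM and COL1A2 had 0 counts. Their part in the results was not tested. The file headers name 5 folders, of which the Kelly 1 day inputs, the Kelly 1 day RIP libraries and each of the remaining experiments took 1 apiece. Experiment and any processing batch cannot be told apart. In Kelly cells at 1 day, library type and folder cannot be told apart either, which applies to the ratios of RIP over input there.

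INSIG1 and SREBF2 were the members whose input level fell with STM2457 in Kelly cells at 6 days, so their promoters are shown. The sequences are RefSeq's (GRCh38.p14), 5′ to 3′, from 250 bases before to 50 after the annotated start. In the INSIG1 promoter (chr7:155297628-155297927, plus strand) the capitals mark the E-box CACGTG, 55 bases before the start. In the SREBF2 promoter (chr22:41832855-41833154, plus strand) they mark TCACCCCAC, a core of sterol response elements, 133 bases before the start.
INSIG1: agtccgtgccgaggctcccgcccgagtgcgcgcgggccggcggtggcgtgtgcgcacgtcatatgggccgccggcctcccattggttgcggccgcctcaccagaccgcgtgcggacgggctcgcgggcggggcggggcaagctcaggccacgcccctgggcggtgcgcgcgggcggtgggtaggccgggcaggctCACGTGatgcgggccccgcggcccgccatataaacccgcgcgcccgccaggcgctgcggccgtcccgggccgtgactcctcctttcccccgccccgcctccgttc
SREBF2: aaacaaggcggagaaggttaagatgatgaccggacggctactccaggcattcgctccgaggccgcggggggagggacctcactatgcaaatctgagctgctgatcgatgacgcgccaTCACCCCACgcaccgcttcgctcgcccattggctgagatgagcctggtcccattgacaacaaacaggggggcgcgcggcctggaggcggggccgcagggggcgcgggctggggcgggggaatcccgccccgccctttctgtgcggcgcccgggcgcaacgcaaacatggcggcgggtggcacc

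TCACCCCAC was searched on both strands and occurred in 0.43% of the 35116 promoters of the table. Among the 10 promoter entries of the 6 members that have any, only that of SREBF2 held it. CACGTG, in 7.26% of all promoters, matched those of INSIG1 and LSS. Inverted CCAAT boxes (ATTGG) are short and common, in 34.6% of promoters, and matched at least 1 entry of each of the 6 members. GC boxes (GGGCGG) were in 45% of promoters and also matched each of the 6. No motif overlapped another in its definition, and a match is a description of the letters only.

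The level of each member in the control inputs is given first, as CPM scaled by TMM factors over the 22 input libraries. To compare genes with each other, CPM was divided by the length of the gene's merged exons in kilobases. In the Kelly 1 day controls SREBF2 stood highest, at 77.2 ± 2.84 CPM per kb (SD, n = 3). FDFT1 followed with 31.7 ± 0.854, then LSS with 27.4 ± 1.09 CPM per kb. DHCR7 (25.6 ± 1.45) and SQLE (25.3 ± 0.414) did not differ beyond their spread. HMGCS1 lay at 19.8 ± 1.97 CPM per kb, and IDI1 (9.95 ± 1.29) and INSIG1 (9.83 ± 0.892) shared the lowest place within their spread. In NGP controls FDFT1, at 41.1 ± 2.46 CPM per kb, stood above SREBF2, at 32.5 ± 0.799. In tumours given vehicle SREBF2 was again highest, at 42.1 ± 1.42 (SD, n = 2), and HMGCS1 lowest, at 2.53 ± 0.408 CPM per kb.

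**Figure D1:**
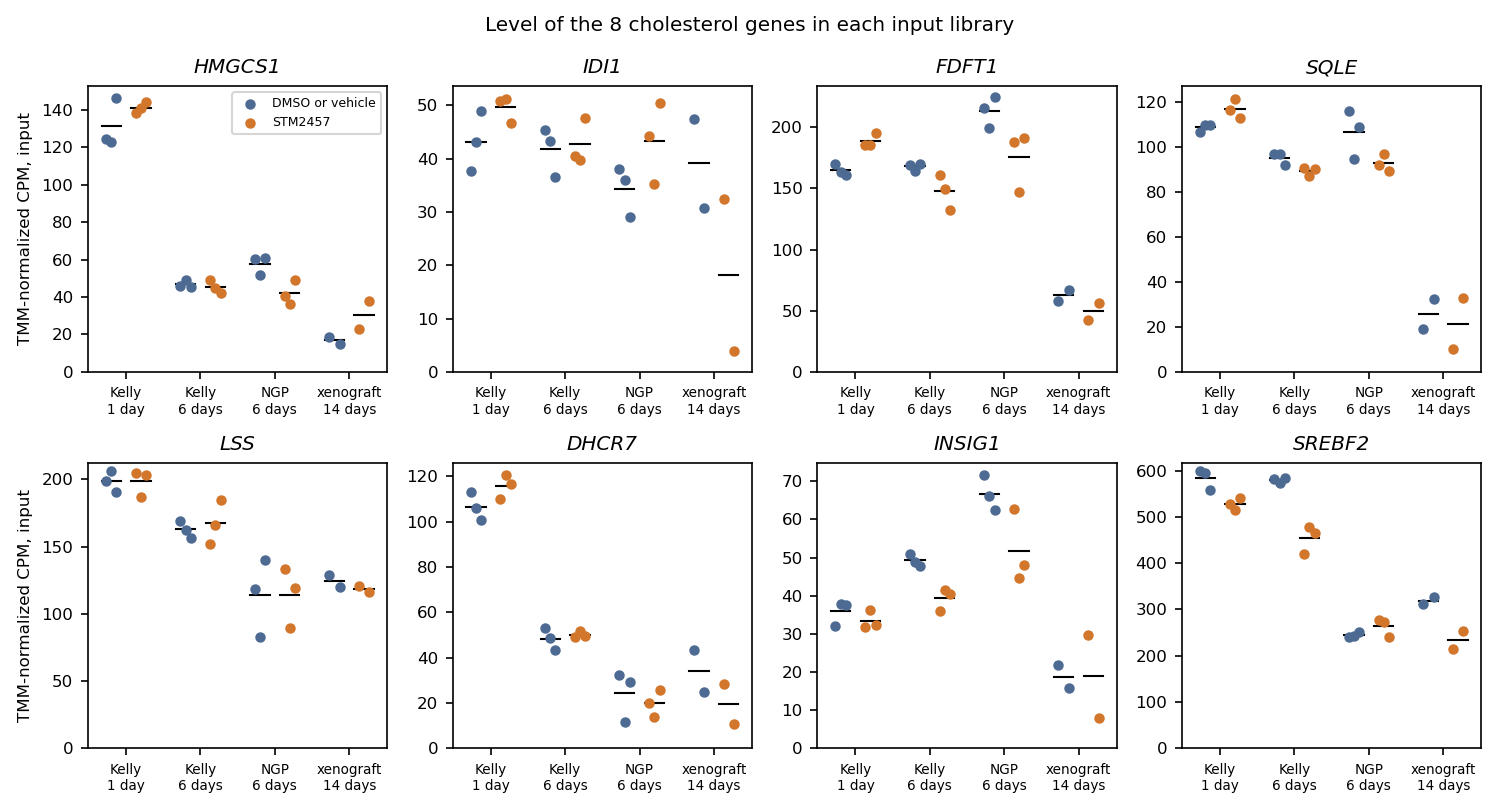
TMM-normalized CPM of each of the 8 genes (y axis of each panel, from 0) in every input library, by experiment (x axis). Points are libraries, blue for DMSO or vehicle and orange for STM2457, and black bars are group means. HMGCS1 stands between 123 and 146 CPM in the Kelly 1 day controls and under 61 CPM in every control of the other experiments, while SREBF2 controls of both Kelly culture experiments lie between 559 and 598 CPM.

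Control levels were compared between experiments in 1 edgeR fit of the 11 DMSO inputs. Large parts of the transcriptome differed: edgeR's quasi-likelihood test called 61.5% of genes between the 6 day and 1 day Kelly cultures, 59.7% between NGP and Kelly at 6 days, and 39.5% between tumours and the 6 day Kelly culture. The summed level of the noradrenergic markers also differed, from 13500 to 15000 CPM in Kelly inputs at 1 day to 34900 to 40000 CPM at 6 days, and its part in these differences was not tested.

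Between the Kelly cultures 3 of the 8 members differed, a smaller share than the 61.5% of all genes called. HMGCS1, the enzyme that makes HMG-CoA (chromosome 5, 43287470 to 43313512, minus strand, GRCh38), had 125, 123 and 146 CPM in the DMSO inputs at 1 day and 45.9, 49.3 and 45.3 CPM at 6 days. No libraries of the 2 times overlapped, and the log2 difference was -1.48 ± 0.11 (SE, adjusted p = 1.25e-08). DHCR7 (chromosome 11, 71428193 to 71452868, minus strand), whose enzyme reduces 7-dehydrocholesterol to cholesterol, had 113, 106 and 101 CPM at 1 day and 53.0, 48.7 and 43.4 CPM at 6 days, a log2 difference of -1.13 ± 0.24 (adjusted p = 0.00056). INSIG1 (chromosome 7, 155297776 to 155310235, plus strand), which codes for the anchor that retains the SREBP complex, ran the other way, from 32.1, 38.0 and 37.6 CPM to 51.0, 48.8 and 47.9 CPM. Its log2 difference of 0.46 ± 0.13 had an adjusted p of 0.0057. SREBF2 (chromosome 22, 41833079 to 41907307, plus strand) had 598, 594 and 559 CPM at 1 day and 581, 572 and 585 CPM at 6 days, within the spread. The other 4 did not pass: LSS was at -0.28 ± 0.13 (adjusted p = 0.0753), SQLE at -0.18 ± 0.12, IDI1 at -0.04 ± 0.17 and FDFT1 at 0.03 ± 0.08. With library totals in place of TMM factors, the median of all genes moved to -0.39 and 7 members were called lower at 6 days, INSIG1 being no longer called.

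The lines differed in both directions. SREBF2 stood at 241, 243 and 252 CPM in NGP controls, below all Kelly controls of the cultures, with a log2 difference of -1.24 ± 0.07 (adjusted p = 4.95e-10). DHCR7, at 32.4, 11.6 and 29.3 CPM in NGP, was lower by -0.94 ± 0.25 (adjusted p = 0.00421). LSS (chromosome 21, 46188141 to 46228824, minus strand), the cyclase that makes lanosterol, had 119, 82.9 and 140 CPM in NGP against 169, 163 and 157 CPM in Kelly cells, a log2 difference of -0.50 ± 0.13 (adjusted p = 0.00409). Higher in NGP were INSIG1 (72, 66 and 63 CPM, log2 difference 0.44 ± 0.13, adjusted p = 0.00846) and FDFT1 (216, 200 and 225 CPM, 0.35 ± 0.08, adjusted p = 0.00192). HMGCS1 also passed, at 0.31 ± 0.12 (adjusted p = 0.0329). It lost the call in 7 of 15 alternatives, with adjusted p up to 0.127. IDI1 (-0.28 ± 0.17, adjusted p = 0.173) and SQLE (0.17 ± 0.13, adjusted p = 0.258) did not pass.

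In the vehicle tumours 5 members were lower than in cultured Kelly cells at 6 days, and none was higher. SQLE (chromosome 8, 124998497 to 125022283, plus strand), which codes for squalene epoxidase, had 19.2 and 32.5 CPM in tumours against 96.8, 97.1 and 92.04 CPM in culture, a log2 difference of -1.83 ± 0.17 (adjusted p = 6.1e-07). HMGCS1 followed with 18.7 and 14.9 CPM and -1.50 ± 0.16 (adjusted p = 2.45e-06). FDFT1 (chromosome 8, 11795573 to 11839304, plus strand), the gene of squalene synthase, had 58.2 and 66.8 CPM and a difference of -1.41 ± 0.10 (adjusted p = 8.3e-08). INSIG1, at 21.9 and 15.8 CPM, was lower by -1.41 ± 0.17 (adjusted p = 1.05e-05), and SREBF2, at 311 and 326 CPM, by -0.86 ± 0.08 (adjusted p = 1.04e-06). No tumour library overlapped a culture library for these 5, beside 39.5% of all genes called in this comparison. The share of all genes without such overlap was not counted. LSS kept 129 and 120 CPM in tumours (log2 difference -0.39 ± 0.15, adjusted p = 0.0569), and IDI1 (chromosome 10, 1039152 to 1049170, minus strand), whose enzyme interconverts the isoprenoid units, 47.5 and 30.8 CPM (-0.11 ± 0.20, adjusted p = 0.7). DHCR7 had 43.5 and 24.9 CPM in the tumours, with a difference of -0.53 ± 0.29 (adjusted p = 0.166). Leaving out some single libraries gave LSS or DHCR7 a call, both of them without NGP replicate 2 (adjusted p = 0.00333 and 0.0219). In tumour RNA, fewer cells of a type and less RNA per cell cannot be told apart.

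After 1 day with STM2457 the members of Kelly cells moved little. FDFT1 rose and SREBF2 fell, and the other 6 did not pass the test, beside 17.5% of all genes called in this comparison. FDFT1 had 170, 164 and 161 CPM with DMSO and 186, 186 and 195 CPM with STM2457, so every treated library lay above every control. The log2 change was 0.21 ± 0.05 (adjusted p = 0.00429). SREBF2 had 598, 594 and 559 CPM with DMSO and 527, 515 and 540 CPM with STM2457, all treated libraries being lower, with a log2 change of -0.13 ± 0.04 (adjusted p = 0.0321). That call was lost in 8 of 12 alternatives, among them leaving out either the first or the second control or any of the treated replicates, with adjusted p from 0.06 to 0.134. FDFT1 kept its call in 11 of 12 and lost it in the fit of all 22 inputs. Treated and control inputs did not overlap in 33.3% of all genes tested, and in 3 of the 8 members.

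The uncalled enzymes at 1 day were mostly above 0. SQLE had 107, 110 and 110 CPM with DMSO and 116, 122 and 113 CPM with STM2457, not overlapping, for a change of 0.12 ± 0.05 (adjusted p = 0.132). DHCR7 changed by 0.13 ± 0.05 (adjusted p = 0.109), IDI1 by 0.21 ± 0.09 (adjusted p = 0.106), and HMGCS1 by 0.12 ± 0.06 (adjusted p = 0.213), each with overlapping libraries. LSS was at 0.01 ± 0.05 and INSIG1 at -0.09 ± 0.09. In all, 6 of 8 members lay above 0, beside 6813 of the 13246 genes tested. The median log2 change of the members was 0.117, beside 0.007 over all genes tested.

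**Figure D2:**
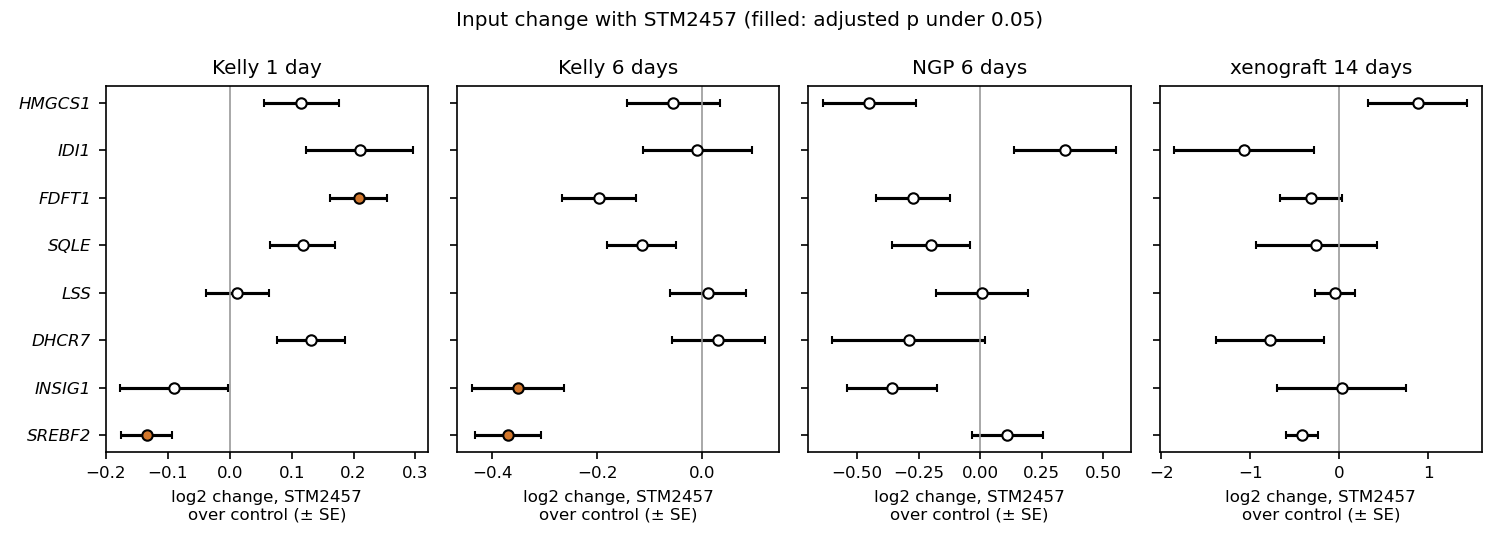
Log2 change of the input level with STM2457 over DMSO or vehicle (x axis, ± SE from edgeR) for each of the 8 genes (y axis) in the 4 experiments. The panels have x axes of different ranges. Filled points have an adjusted p under 0.05: FDFT1 and SREBF2 in Kelly cells at 1 day, INSIG1 and SREBF2 in Kelly cells at 6 days.

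After 6 days with STM2457, 2 of the 8 members were called in Kelly cells, a share near the 26.6% of all genes called. These were SREBF2 and INSIG1, which fell, and none of the enzymes among the members passed the test. SREBF2 had 581, 572 and 585 CPM with DMSO and 420, 479 and 465 CPM with STM2457. The groups stood far apart, the log2 change was -0.37 ± 0.06 (adjusted p = 0.000345), and the call held in all 12 alternatives. INSIG1 had 51.0, 48.8 and 47.9 CPM with DMSO and 36.0, 41.5 and 40.5 CPM with STM2457, again without overlap, at a log2 change of -0.35 ± 0.09 (adjusted p = 0.00694). It lost the call with library totals as the scale (adjusted p = 0.0515) and in the fit of all 22 inputs (0.508). Without the shallow replicate 3 of the treated inputs, SREBF2 and INSIG1 kept their calls.

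Among the enzymes at 6 days, FDFT1 lay nearest to the threshold. It had 169, 164 and 170 CPM with DMSO and 161, 149 and 133 CPM with STM2457, not overlapping, for a change of -0.20 ± 0.07 (adjusted p = 0.0522). It gained the call without replicate 1 of the treated inputs (adjusted p = 0.0052) and with no filter on low counts (0.0452). SQLE, at 96.8, 97.1 and 92.04 CPM against 90.5, 87.3 and 90.1 CPM, changed by -0.12 ± 0.07 (adjusted p = 0.218). HMGCS1, IDI1, LSS and DHCR7 were within 0.06 of 0 on the log2 scale, with SEs of 0.07 to 0.10, and their libraries overlapped. The median of the 8 was -0.085, beside -0.005 over all genes tested.

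The response of FDFT1 differed between the times. In the test of the difference between the 6 day and 1 day changes, FDFT1 gave -0.39 ± 0.09 (adjusted p = 0.00559) and was the only member among 8.41% of genes called. It kept that call in all 17 alternatives. SREBF2 differed by -0.22 ± 0.08 (adjusted p = 0.08), SQLE by -0.22 ± 0.08 (adjusted p = 0.111) and INSIG1 by -0.25 ± 0.13 (adjusted p = 0.258), so a difference between the times was not established for these 3. IDI1 (-0.21 ± 0.14), HMGCS1 (-0.15 ± 0.11), DHCR7 (-0.08 ± 0.10) and LSS (0.01 ± 0.09) did not pass either. The 2 times come from separate experiments with their own controls.

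In NGP cells at 6 days no member passed edgeR's test or DESeq2's, beside 4.23% of all genes called by edgeR, and HMGCS1 alone had an unadjusted p under 0.05. HMGCS1 had 60.1, 51.7 and 60.9 CPM with DMSO and 40.4, 36.1 and 49.2 CPM with STM2457. All treated libraries were lower, at a log2 change of -0.45 ± 0.19 (unadjusted p = 0.0247, adjusted p = 0.198 in edgeR). FDFT1, at 216, 200 and 225 CPM against 188, 147 and 191 CPM, was likewise lower in every treated library (-0.27 ± 0.15, adjusted p = 0.361). SREBF2 had 241, 243 and 252 CPM with DMSO and 277, 274 and 241 CPM with STM2457, a change of 0.11 ± 0.14 (adjusted p = 0.759). INSIG1, at -0.36 ± 0.18 (adjusted p = 0.314), had 1 treated library at 62.7 CPM inside the control range of 62.6 to 71.7 CPM. Its change has nearly the same size as in Kelly cells, with an SE that is larger. IDI1 was at 0.34 ± 0.21, SQLE at -0.20 ± 0.16, LSS at 0.01 ± 0.19 and DHCR7 at -0.29 ± 0.31, with overlapping libraries. DHCR7 had 32.4, 11.6 and 29.3 CPM with DMSO and 20.2, 13.9 and 25.8 CPM with STM2457, its second library being lowest in both groups.

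The change of SREBF2 in Kelly cells at 6 days minus that in NGP cells was -0.46 ± 0.13 (unadjusted p = 0.00321, adjusted p = 0.11). No member passed this edgeR test of the difference between the lines, in which 1.36% of genes were called, and SREBF2 and HMGCS1 had an unadjusted p under 0.05. DESeq2 called SREBF2 (adjusted p = 0.0135). HMGCS1 differed by 0.41 ± 0.19 (adjusted p = 0.374). The differences of the other 6 ran from -0.32 ± 0.23 for IDI1 to 0.35 ± 0.36 for DHCR7, with INSIG1 at 0.03 ± 0.19, LSS at 0.03 ± 0.23, FDFT1 at 0.09 ± 0.16 and SQLE at 0.11 ± 0.15.

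In the tumours edgeR called 0 of 11329 genes, which is 0% of those tested, though 968 stood below an unadjusted p of 0.05. By DESeq2 the count was 120 genes, none of them a member. SREBF2 had 311 and 326 CPM with vehicle and 215 and 254 CPM with STM2457, both treated tumours being lower, for a log2 change of -0.42 ± 0.18 (unadjusted p = 0.0443, adjusted p = 0.563). HMGCS1 was higher in both treated tumours, with 22.8 and 37.7 CPM against 18.7 and 14.9 CPM (0.88 ± 0.56, adjusted p = 0.713). FDFT1, at 42.6 and 56.3 CPM against 58.2 and 66.8 CPM, was lower in both (-0.32 ± 0.35, adjusted p = 0.875). Such separation of treated from vehicle inputs was seen in 40.9% of all genes tested, beside 3 of the 8 members. The treated tumours differed widely between themselves in other members: IDI1 had 32.5 and 3.94 CPM, SQLE 10.1 and 32.7 CPM, INSIG1 29.8 and 7.88 CPM, and DHCR7 28.2 and 10.7 CPM. The DHCR7 vehicle tumours stood at 43.5 and 24.9 CPM, overlapping the treated ones (-0.78 ± 0.61, adjusted p = 0.777). LSS varied little, with 120 and 116 CPM against 129 and 120 CPM. With 2 replicates a group, SEs of the uncalled changes reached 0.79.

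SREBF2 makes up a large part of the summed level of the 8 members. The sum was 1372 ± 15.9 CPM with DMSO and 1372 ± 17.0 CPM with STM2457 at 1 day in Kelly cells (SD, n = 3). At 6 days it was 1191 ± 17.6 CPM with DMSO and 1036 ± 33.2 CPM with STM2457. NGP cells had 863 ± 67.1 and 803 ± 61.2 CPM, and the tumours 640 ± 12.4 and 510 ± 13.2 CPM (SD, n = 2). These sums are a description, with no test.

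Other genes of the pathway were read from the same fits. At 1 day Kelly cells showed 2 rises and 2 falls among 16 further synthesis enzymes, beside 17.5% of all genes called, with a median change of 0.056. SC5D, a desaturase of the late pathway, rose most (0.40 ± 0.11, adjusted p = 0.0212), with NSDHL, a sterol dehydrogenase (0.30 ± 0.07, adjusted p = 0.00881). ACAT2, an acetoacetyl-CoA thiolase (-0.27 ± 0.07, adjusted p = 0.00907), and MVK, mevalonate kinase (-0.23 ± 0.08, adjusted p = 0.0471), fell. At 6 days 4 of the 16 fell and none rose, a share near the 26.6% of all genes called there. They were MVK by -0.61 ± 0.10 (adjusted p = 0.000293), ACAT2 by -0.41 ± 0.14 (adjusted p = 0.0337), FDPS, farnesyl diphosphate synthase, by -0.40 ± 0.06 (adjusted p = 0.000216), and MVD, which decarboxylates mevalonate diphosphate, by -0.24 ± 0.07 (adjusted p = 0.0171). The median change of all 16 was 0.001. FDPS also differed between the times (-0.34 ± 0.08, adjusted p = 0.00762). None of the 16 passed in NGP cells, where 4.23% of all genes were called. In tumours 15 of the 16 were tested and none passed, where edgeR called 0% of all genes.

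SREBF1, which codes for the related SREBP-1, had the largest change in Kelly cells at 6 days among the 5 genes of sterol sensing and SREBP processing. Of the 5, 1 passed at 1 day and 3 at 6 days in Kelly cells, and 1 in the NGP line. Over all genes 17.5%, 26.6% and 4.23% were called in these comparisons. After 6 days the SREBF1 level in Kelly cells fell from 197 ± 3.38 CPM to 117 ± 6.86 CPM, a log2 change of -0.78 ± 0.06 (adjusted p = 2.06e-07). In NGP cells it fell from 191 ± 11.3 to 127 ± 20.5 CPM, a change of -0.59 ± 0.16 (adjusted p = 0.0309). At 1 day it did not pass (-0.10 ± 0.06, adjusted p = 0.264), and the difference between the Kelly times was -0.66 ± 0.09 (adjusted p = 2.44e-05). In the tumours it stood at 139 ± 13.5 CPM with vehicle and 181 ± 20.0 CPM with STM2457 (SD, n = 2), a change of 0.40 ± 0.21 (adjusted p = 0.638). SCAP, the escort of SREBP, rose at 6 days in Kelly cells (0.22 ± 0.08, adjusted p = 0.0407), as did MBTPS1, a protease that cuts SREBP (0.19 ± 0.07, adjusted p = 0.043). MBTPS1 also rose at 1 day (0.14 ± 0.05, adjusted p = 0.0475).

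Among 12 genes of uptake and intracellular sterol transport, of which 11 were tested in the cultures, none passed at 1 day and 2 fell at 6 days in Kelly cells, with medians of 0.069 and -0.175. Over all genes 17.5% and 26.6% were called, so neither count exceeds the background. The 2 were VLDLR, a lipoprotein receptor (-0.83 ± 0.16, adjusted p = 0.00113), and SCARB1, a receptor for high-density lipoprotein (-0.53 ± 0.07, adjusted p = 1.81e-05). In NGP cells LIPA, the lysosomal acid lipase, fell (-0.95 ± 0.26, adjusted p = 0.0364). The change of VLDLR differed between the lines (-1.41 ± 0.34, adjusted p = 0.0422).

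The 10 genes of fatty acid synthesis under SREBP gave 2 rises in Kelly cells at 1 day, near the 17.5% of all genes called. These were ELOVL6, a fatty acid elongase (0.37 ± 0.07, adjusted p = 0.00193), and SCD, a desaturase (0.12 ± 0.04, adjusted p = 0.0478). At 6 days 2 fell, beside 26.6% of all genes called: ACSS2, an acetyl-CoA synthetase (-0.86 ± 0.15, adjusted p = 0.000571), and ACACA, acetyl-CoA carboxylase (-0.29 ± 0.08, adjusted p = 0.0178). ACSS2 and ELOVL6 differed between the times (-0.78 ± 0.21, adjusted p = 0.0216, and -0.63 ± 0.13, adjusted p = 0.00241). None of the 4 genes of sterol efflux and its nuclear receptors LXR passed in any input comparison with STM2457. In tumours 3 of them were tested, and 0% of all genes were called there, beside 4.23% in NGP cells.

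The ratio of RIP over input was taken per RIP library against the mean input of its group, with TMM factors within the experiment and 0.1 CPM added to both. A value of 0 therefore marks the typical gene, not an unmethylated one, and enrichment is relative. Spike-in RNA was added in the study according to the labels' protocols, but it was not used here. The test called 67.6% of genes in Kelly DMSO libraries at 1 day, 58% at 6 days, 55.5% in NGP cells and 3.75% in tumours.

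In DMSO libraries the members spanned a wide range of pulldown. SQLE and HMGCS1 were above the typical gene, and LSS, INSIG1 and SREBF2 far below it. SQLE had log2 ratios of 1.28, 1.28 and 1.38 in Kelly cells at 1 day, which gave 1.32 ± 0.07 in the fit (SE, adjusted p = 4.17e-09). In NGP cells it stood at 0.62, 0.47 and 0.71 (0.60 ± 0.16, adjusted p = 0.00348), and in Kelly cells at 6 days at 0.67, 0.46 and 0.24 (0.47 ± 0.20, adjusted p = 0.0635). HMGCS1 was enriched in all 3 culture experiments, with fitted ratios of 0.71 ± 0.10 (adjusted p = 2.46e-05), 0.59 ± 0.17 (adjusted p = 0.011) and 1.22 ± 0.19 (adjusted p = 1.16e-05). Its DMSO libraries lay between 0.5 and 1.42. The 6 day call of HMGCS1 was lost without DMSO replicate 2 (adjusted p = 0.0754), and the NGP call of SQLE without DMSO replicate 3 (0.0504).

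**Figure D3:**
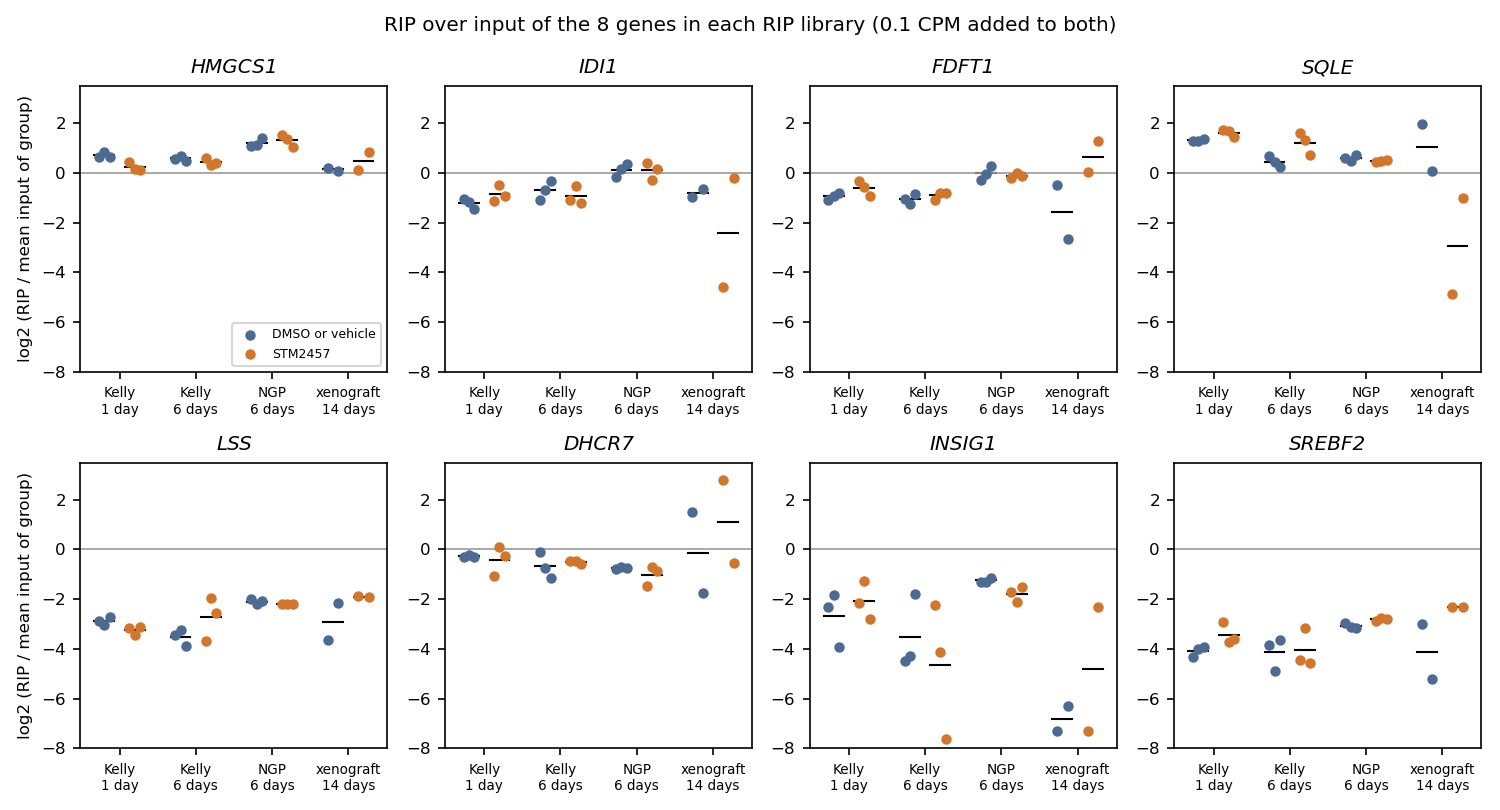
Log2 ratio of each RIP library to the mean input of its group (y axis, the same in all panels) for the 8 genes, by experiment (x axis). Points are RIP libraries, blue for DMSO or vehicle and orange for STM2457, black bars are group means, and the grey line at 0 marks equal normalized CPM. SREBF2 lies at -2.31 or below in every library, and the tumour libraries scatter most. INSIG1 points at -7.32 are libraries with 0 counts, placed there by the added 0.1 CPM.

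SREBF2 was the most depleted member in each of the culture experiments. Its RIP level was 4.98%, 6.17% and 6.66% of input in Kelly DMSO libraries at 1 day, 6.93%, 3.39% and 7.95% at 6 days, and 12.8%, 11.4% and 11.2% in NGP cells. The fitted log2 ratios were -4.08 ± 0.19 (adjusted p = 5.26e-10), -4.04 ± 0.41 (adjusted p = 3.78e-06) and -3.08 ± 0.17 (adjusted p = 1.82e-11). RIP counts behind these values were 210 or more per library. In tumours SREBF2 was the 1 member called, at -3.73 ± 0.75 (adjusted p = 0.0345), from libraries at 12.5% and 2.62% of input. That call was lost when any replicate was left out.

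LSS was depleted to 13.6%, 12.0% and 15.2% of input in Kelly cells at 1 day (-2.88 ± 0.11, adjusted p = 8.54e-11). At 6 days it was at 9.17%, 10.4% and 6.73% (-3.51 ± 0.37, adjusted p = 5.45e-06), and in NGP cells at 24.8%, 21.6% and 23.8% (-2.10 ± 0.21, adjusted p = 3.2e-08). INSIG1 varied far more between Kelly replicates, with 19.9%, 27.7% and 6.4% of input at 1 day and 4.21%, 4.94% and 28.9% at 6 days, from 20 to 320 counts a library. Its fitted ratios were -2.47 ± 0.47 (adjusted p = 0.000395) and -2.98 ± 1.00 (adjusted p = 0.0228). The second of these calls did not survive leaving out DMSO replicate 1 (adjusted p = 0.162) or 2 (0.132). NGP libraries agreed more closely, at 40.8%, 40.7% and 45.5% (-1.24 ± 0.21, adjusted p = 2.64e-05). In the vehicle tumours INSIG1 had 0 and 1 RIP counts, so no ratio is given.

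FDFT1 was moderately depleted in Kelly cells, at -0.93 ± 0.13 (adjusted p = 2.79e-05) and -1.04 ± 0.16 (adjusted p = 0.000125), but lay at 0.00 ± 0.18 in NGP cells. IDI1 was called in Kelly cells at 1 day (-1.20 ± 0.18, adjusted p = 6.8e-05), missed at 6 days (-0.67 ± 0.28, adjusted p = 0.0554) and was at 0.14 ± 0.23 in NGP cells. DHCR7 passed in none of the 4 experiments; its ratios in the cultures were -0.28 ± 0.20, -0.60 ± 0.26 and -0.77 ± 0.33. With RLE factors or DESeq2 it was called lower in the NGP line and in the 6 day Kelly culture, where IDI1 was called too. In tumours LSS was at -2.72 ± 0.73 (adjusted p = 0.072), and HMGCS1 (0.15 ± 1.04), SQLE (1.32 ± 1.41), IDI1 (-0.81 ± 1.58), FDFT1 (-1.21 ± 0.90) and DHCR7 (0.66 ± 1.31) had wide SEs. The difference between the lines was not tested.

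These directions are relative to the bulk of mRNA. Mitochondrial mRNA took 0.077% to 5.86% of the counts in RIP libraries and 1.79% to 10.5% in inputs. With it as the scale, the median of all genes moved from -0.07 to 1.57 in Kelly cells at 1 day, from -0.11 to 4.77 at 6 days and from 0.08 to 0.80 in NGP cells. On that scale FDFT1 and DHCR7 were above input in Kelly cells at both times, while SREBF2 and LSS remained below it at 1 day and in NGP cells. At 6 days every member was then above 0, SREBF2 at 1.11 (adjusted p = 0.12).

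The members' canonical transcripts (GENCODE 44) differ in composition. LSS, DHCR7 and SREBF2 have a GC content of 58.1%, 58.1% and 58.1%, above the median of 49.0% over the tested genes with a transcript. HMGCS1 and IDI1 have 39.0% and 37.9%. Across genes, the DMSO ratio was nearly unrelated to GC content in Kelly cells (Spearman's rho 0.06 at 1 day and 0.10 at 6 days) but fell with it in NGP cells (rho -0.49). These are correlations across genes of the same libraries, and genes are not independent replicates.

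**Figure D4:**
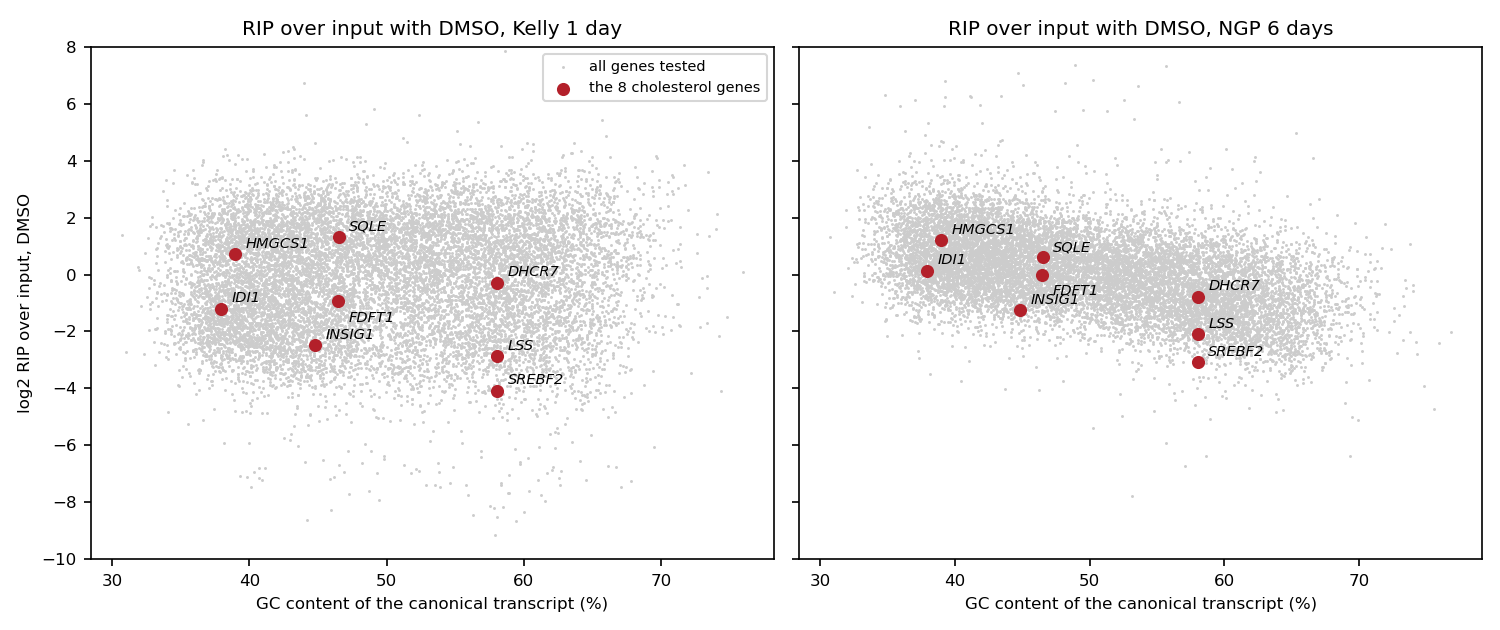
Log2 RIP over input in DMSO libraries from edgeR (y axis) against the GC content of the canonical transcript in percent (x axis), for Kelly cells at 1 day (left) and NGP cells (right). Grey points are all genes tested and red points the 8 cholesterol genes. The cloud slopes down with GC content in NGP cells and is flat in Kelly cells, and SREBF2 lies near its lower edge in both.

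Set against genes within 2 percentage points of its own GC content, SREBF2 remained low. In NGP cells only 1.7% of 1622 such genes had a lower ratio, and in Kelly cells 3.0% at 1 day and 5.2% at 6 days. LSS, of almost the same GC content, stood above 10.0%, 8.1% and 10.1% of its neighbours in Kelly cells at 1 day and 6 days and in NGP cells. DHCR7 lay near the middle of the same genes, above 47.9%, 43.9% and 48.6%. HMGCS1 and SQLE were above 64.3% and 55.8% of their neighbours in NGP cells, and above 80.7% and 65.4% of all genes tested there. INSIG1 was above 5.6% of its neighbours there.

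Length and motif content did not order the members in the same way. GGACT, a common form of the m6A motif, occurred 11 times in the LSS transcript, or 2.25 times per kb, more densely than in 94.5% of tested genes, although LSS was depleted. INSIG1 had 0 occurrences in 2908 bases. SQLE, the member most enriched at 1 day, had 3 in 2962 bases (1.01 per kb), and SREBF2, the most depleted, 3 in 5237 bases (0.573 per kb). HMGCS1 has the longest exon of the 8, 3751 bases, longer than that of 80.3% of genes. Across genes the DMSO ratio rose with the length of the longest exon (rho 0.31, 0.30 and 0.35 in the 3 culture experiments) and hardly with GGACT density (0.08, 0.09 and -0.11). FDFT1 has the shortest longest exon, 911 bases.

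With STM2457 the ratio of RIP over input changed in 17.2% of genes in Kelly cells at 1 day, 2.06% at 6 days, and 0% in NGP cells and in tumours, where 764 and 809 genes stood below an unadjusted p of 0.05 in edgeR. By DESeq2 the counts were 2 genes in NGP cells and 159 in tumours, none of them a member. HMGCS1 was the only member called. In Kelly cells at 1 day its RIP level fell from 155%, 181% and 157% of input with DMSO to 135%, 113% and 109% with STM2457, all treated libraries being lower. The change was -0.46 ± 0.14 on the log2 scale (adjusted p = 0.0389). It was lost in 9 of 12 alternatives, including leaving out any single control replicate and a block for the replicate number (adjusted p = 0.0718).

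The other 7 members did not pass at 1 day. SQLE lay above the control range in all 3 treated libraries, with log2 ratios of 1.71, 1.7 and 1.44 against 1.28, 1.28 and 1.38, a change of 0.31 ± 0.11 (adjusted p = 0.0653). SREBF2 had 13.1%, 7.5% and 8.18% of input with STM2457 against 4.98%, 6.17% and 6.66% with DMSO (0.69 ± 0.24, adjusted p = 0.0669). LSS had 11.2%, 9.24% and 11.4% against 13.6%, 12.0% and 15.2%, lower in all treated libraries (-0.36 ± 0.15, adjusted p = 0.118). INSIG1 (0.53 ± 0.63), IDI1 (0.37 ± 0.26), FDFT1 (0.35 ± 0.18) and DHCR7 (-0.05 ± 0.29) overlapped between treatments. Ratios did not overlap in 36.6% of all genes tested, and in 4 of the 8 members. With mitochondrial mRNA as the scale 7 members were called lower, and the median of all genes moved from -0.03 to -1.46. With DESeq2's size factors 2 members were called higher and none lower.

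At 6 days in Kelly cells SQLE again had higher ratios in all treated libraries, 1.59, 1.33 and 0.73 against 0.67, 0.46 and 0.24 (0.80 ± 0.28, unadjusted p = 0.0156, adjusted p = 0.176). With mitochondrial mRNA as the scale this change was -1.63. The other 7 overlapped, while 22.1% of all genes tested had ratios that did not. LSS was at 0.93 ± 0.47, FDFT1 at 0.14 ± 0.22, SREBF2 at 0.13 ± 0.51, DHCR7 at 0.09 ± 0.36, HMGCS1 at -0.14 ± 0.24, IDI1 at -0.23 ± 0.39 and INSIG1 at -0.46 ± 1.33. In NGP cells INSIG1 was lower in all treated libraries, at 30.2%, 22.8% and 34.7% of input against 40.8%, 40.7% and 45.5% (-0.53 ± 0.29, adjusted p = 0.843). SREBF2 was higher in all of them, at 13.6%, 14.7% and 14.5% against 12.8%, 11.4% and 11.2% (0.27 ± 0.23, adjusted p = 0.887). LSS hardly varied there, at 21.5%, 21.5% and 21.7% with STM2457 (-0.12 ± 0.29). HMGCS1 (0.10 ± 0.27), IDI1 (-0.01 ± 0.32), SQLE (-0.10 ± 0.23), FDFT1 (-0.12 ± 0.26) and DHCR7 (-0.22 ± 0.46) did not pass.

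RIP libraries of the tumours could not resolve the members. SQLE had 1108 and 229 counts with vehicle and 2 and 123 with STM2457, and DHCR7 ranged from -1.77 to 2.79 on the log2 scale over the 4 libraries. INSIG1 had 0 and 42 counts with STM2457. SREBF2 was at 20.1% of input in both treated tumours, above 12.5% and 2.62% with vehicle (1.41 ± 0.96, adjusted p = 0.888). Tumour ratios did not overlap in 37.0% of all genes tested, and in 4 of the 8 members. FDFT1 was at 2.01 ± 1.27, LSS at 0.81 ± 0.97, HMGCS1 at 0.37 ± 1.47 and IDI1 at -0.31 ± 2.22. The SEs of the 8 changes ran from 0.96 to 3.03.

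The members' variation within experiments was compared last. Over the 22 inputs, after each gene's mean in its experiment was taken off its log2(CPM + 1), the 28 pairs of members had Pearson correlations from -0.69 to 0.71, with a median of 0.107, and 19 were above 0. Over the 18 inputs without the tumours they ran from -0.36 to 0.79, with a median of 0.179, and again 19 were above 0. Among 9305 genes, those most like the mean of the members were PMPCA (r = 0.94), SPRYD7 (0.93), TRA2B (0.90), KCNN1 (0.89) and SPCS3 (0.89). Without the tumours their correlations were 0.80 to 0.88. The members themselves correlated with that mean at -0.26 (HMGCS1) to 0.90 (DHCR7). Each member is part of the mean, so its value cannot be compared directly with those of genes outside it. Several of these values rest on the tumours. Without them HMGCS1 moved to 0.69, SQLE from -0.09 to 0.63, and IDI1 from 0.72 to 0.15, and SREBF2 was lowest at 0.04. These values describe libraries that share depth and scaling, and they carry no test.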

How the data were processed

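The deposited tables hold raw counts for each gene. The authors counted paired reads, per the file headers, over exons of GENCODE 33 protein-coding genes (GRCh38) with featureCounts 1.5.3, without a strand option and without counting reads that overlap several genes. Per the submitters' processing notes, FastQC 0.11.5, Trimmomatic 0.36 and HISAT2 2.1.0 were also used. No member shares exon bases with another gene of the table.

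Here each comparison was fitted over all genes with edgeR 4.0.16 (R 4.3.3): filterByExpr with a minimum count of 10 and total of 15, TMM factors, quasi-likelihood tests, two-sided, Benjamini-Hochberg adjustment, and calls at an adjusted p under 0.05. SEs are the fitted log2 value divided by the square root of F. DESeq2 1.42.0 was an alternative. The script was tested on simulated data. The 8 genes, the gene lists and the tests were chosen with earlier results of these data known. All 8 members are named in every comparison across genes; other listed genes are named if they passed with the largest change or belong to a count of 5 or fewer, and the values of SREBF1 in all groups were added after they were seen. Some listed genes are not reported here. Whether equal replicate numbers mark paired samples is not known. Same-number correlations of deviations ran from -0.37 to 0.42, which cannot settle it with 2 or 3 libraries a group. In NGP RIP libraries they were 0.228, 0.419 and -0.311 for replicates 1 to 3. Replicate 2 was the shallowest NGP input with DMSO (5585214 counts) and with STM2457 (5488974).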

Additional observations from a re-analysis of the deposited data

Results flagged for a closer look

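In 4 members the libraries treated with STM2457 lay all above their controls in one experiment and all below them in another. Such separation is common among all genes tested: in single experiments 23.3% to 41.2% of genes had inputs that did not overlap, and 22.1% to 37.0% had ratios of RIP over input that did not. Opposite sides between a pair of experiments were seen in 1.94% of genes for the inputs of Kelly cells at 6 days and 1 day, and in 5.31% for the inputs of tumours and NGP cells. Against Kelly inputs at 1 day the share was 1.56% for NGP cells and 7.77% for tumours. The share of genes with opposite sides in any of the pairs was not counted, so the 4 members have no background. The FDFT1 input change of Kelly cells at 6 days minus that at 1 day was -0.39 on the log2 scale and passed edgeR's test (adjusted p = 0.00559). That of SQLE between the same experiments was -0.22 and did not (adjusted p = 0.111). The remaining differences were not tested. FDFT1 changed by 0.21 in Kelly cells at 1 day, -0.27 in NGP cells and -0.32 in tumours, differences of -0.48 and -0.53 from the Kelly 1 day value. The input change of HMGCS1 was 0.88 in tumours and -0.45 in NGP cells, 1.33 apart.

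For the change of RIP over input, SQLE in tumours (-3.22, from 2 and 123 treated counts) lay -3.53 from the value in Kelly cells at 1 day and -4.02 from that at 6 days. LSS differed by 1.17 between tumours and Kelly cells at 1 day. Changes of RIP over input lay on opposite sides in 5.27% of genes between tumours and Kelly cells at 1 day, and in 3.73% between tumours and Kelly cells at 6 days. Comparisons with the tumours rest on 2 treated and 2 vehicle libraries.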

How the results depend on the processing

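Of 38 called results on single members, 20 were kept in every alternative run and 27 in every alternative but mitochondrial mRNA scaling. The input calls in Kelly cells at 1 day (2 members) became 1 with total-count scaling and with the replicate block and 0 in the fit of all 22 inputs, and 1 to 4 when a replicate was left out. Those at 6 days (2) became 1 with total-count scaling or all inputs fitted together, and 2 to 3 when a replicate was left out. That joint fit called 1 member in NGP cells and 2 in tumours, where the main fits called 0. The count over all genes moved as well. It was 26 in the joint fit against 2315 in Kelly cells at 1 day, and 791 against 3396 at 6 days. In NGP cells it was 1266 against 520, and in tumours 2551 against 0. Leaving out a replicate gave 0 to 2 in tumours and 0 to 1 for the difference between the lines, which DESeq2 also put at 1. Calls of RIP over input with DMSO ranged from 3 to 7 in Kelly cells at 6 days (main value 5). In tumours (main value 1) DESeq2 gave 3 and mitochondrial scaling 0. Over all genes these settings called 2198 and 0, against 474 in the main fit. Calls of the change at 1 day (1) were 2 with RLE factors, DESeq2 or no filter, 0 with the replicate block and 7 with mitochondrial scaling. They were 0 to 2 without a replicate. At 6 days mitochondrial scaling gave 5 in place of 0. Over all genes that scaling called 8336 at 1 day and 3938 at 6 days, against 2345 and 275 in the main fits. The control level between the Kelly cultures had 7 calls with total-count scaling in place of 3, and FDFT1 turned to -0.36.

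Mitochondrial scaling turned the sign of 25 of 64 member values of RIP over input and of its change. In 15 of them the value was called on at least 1 of the scales, and in 10 on neither. Of those 10, 1 was a change in Kelly cells at 1 day (INSIG1), 3 were changes at 6 days, 2 were in NGP cells and 4 in tumours. Of the 15, with DMSO at 1 day IDI1 became 0.44, FDFT1 0.70 and DHCR7 1.35; at 6 days INSIG1 became 2.62, IDI1 4.45, FDFT1 4.02, LSS 1.27, DHCR7 4.12 and SREBF2 1.11. The changes at 1 day became -1.13 for SQLE, -1.08 for IDI1, -1.08 for FDFT1 and -0.73 for SREBF2, and at 6 days -2.36 for FDFT1 and -2.58 for SREBF2. The cause was not tested.

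Where a replicate was left out of the tumours, the lone library left was taken to vary as the others do. Replicate numbers were not used as pairs in the main fits, and the block changed no input call other than that of SREBF2 at 1 day (adjusted p = 0.106). With replicate numbers of treated tumours crossed, since RIP deviations correlated at -0.21, the block gave 1 and 0 calls, as without. Counts of the tumour RIP libraries limit every ratio there.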
